A study of Mus musculus with 2 samples.

Results

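The 8 genes described here encode the urea cycle and its carriers: Nags, Cps1, Otc, Ass1, Asl, Arg1, Slc25a15 and Slc25a13. They were chosen by gene symbol among the 32285 genes of each count matrix, and each symbol matched 1 row. No cut on measured values was used, but earlier results of these data were known. Single-cell RNA was measured in liver cells of 2 mice, 1 per group, both bearing liver tumours (the study concerns β-catenin-mutant hepatocellular carcinoma) and both Glul f/f, that is with floxed alleles of the glutamine synthetase (GS) gene. Virus was given 7 weeks before collection, AAV8-GFP to the control and AAV8-Cre to the GS-KO mouse. AAV8 is a vector taken up mainly by hepatocytes, and Cre cuts out the floxed part of a gene in the cells it reaches. The cells came from the supernatant of the first low-speed spin after collagenase perfusion and were enriched for F4/80, a macrophage surface protein, so hepatocytes were the cells left over by 2 steps that do not select them. Hepatocytes were not split into tumour and non-tumour cells, and mouse ages are not given in the sources used here.

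The urea cycle turns ammonia, toxic when it builds up, into urea for excretion. In mitochondria, NAGS makes the activator of CPS1, CPS1 fixes ammonia as carbamoyl phosphate and OTC joins that to ornithine to form citrulline. In the cytosol, ASS1 joins citrulline to aspartate, ASL splits the product into arginine and fumarate, and ARG1 cuts arginine into urea and ornithine; SLC25A15 carries ornithine into mitochondria and SLC25A13 brings aspartate out. In a normal liver lobule the urea cycle is strongest in periportal hepatocytes, where blood enters, while glutamine synthetase sits in the last rim of pericentral hepatocytes, where it takes up the ammonia left over, and β-catenin signalling drives the pericentral programme.

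In the GRCm38 annotation all 8 are protein coding. Cps1 lies at chr1:67123026-67231259 (+ strand), Otc at chrX:10252305-10321024 (+) and Nags at chr11:102145513-102149477 (+). Ass1 lies at chr2:31470207-31520672 (+), Asl at chr5:130011258-130029247 (-) and Arg1 at chr10:24915221-24927484 (-). The carriers Slc25a15 and Slc25a13 lie at chr8:22375551-22398597 (-) and chr6:6041218-6217173 (-).

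Promoter windows, from 250 bases before to 50 after the transcript start, were held by RefSeq (GRCm38.p6) for 5 of the 8 genes. Those of Ass1, Otc and Nags are printed because these genes came out differently in the comparison of the 2 libraries: in deep and low-RNA GS-KO hepatocytes the counting intervals of Ass1 and Otc lay above no difference, and those of Nags included it. All 3 lie on the + strand, at chr2:31470020-31470319 for Ass1, chrX:10252055-10252354 for Otc and chr11:102145263-102145562 for Nags. Capitals mark matches on either strand to TTNNGNAA, a loose form of the site of C/EBP factors, or to CTTTGA, the core of TCF/LEF sites through which β-catenin acts.
Ass1: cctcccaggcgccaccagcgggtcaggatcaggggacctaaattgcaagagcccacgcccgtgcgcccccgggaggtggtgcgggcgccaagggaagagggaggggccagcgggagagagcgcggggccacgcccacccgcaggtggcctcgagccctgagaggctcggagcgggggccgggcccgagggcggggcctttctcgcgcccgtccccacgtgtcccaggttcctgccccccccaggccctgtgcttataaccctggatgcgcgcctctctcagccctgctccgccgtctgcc
Otc: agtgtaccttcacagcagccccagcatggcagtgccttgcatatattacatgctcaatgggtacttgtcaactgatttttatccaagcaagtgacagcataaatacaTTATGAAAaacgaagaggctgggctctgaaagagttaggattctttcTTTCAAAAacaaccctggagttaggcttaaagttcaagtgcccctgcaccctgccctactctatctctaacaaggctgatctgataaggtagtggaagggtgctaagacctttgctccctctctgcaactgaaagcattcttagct
Nags: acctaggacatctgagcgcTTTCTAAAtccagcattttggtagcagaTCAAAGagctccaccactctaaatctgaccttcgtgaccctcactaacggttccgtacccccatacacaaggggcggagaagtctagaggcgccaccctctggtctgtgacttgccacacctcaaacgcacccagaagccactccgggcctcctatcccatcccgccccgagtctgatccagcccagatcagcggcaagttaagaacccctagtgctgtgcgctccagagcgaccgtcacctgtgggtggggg
The Ass1 window was 74.0% G and C and held neither motif, nor the TATA box letters TATAAA. The Otc window was 44.3% G and C and held 2 C/EBP-like matches, starting 143 and 96 bases before the start. The Nags window was 57.7% G and C and held 1 C/EBP-like match 231 bases before the start and, 203 bases before it, 1 TCF/LEF-like match on the opposite strand; no 2 matches overlapped. Of 32851 promoter windows of this length, 40.7% held TTNNGNAA, 16.0% held CTTTGA and 13.6% held TATAAA, so these matches are common and describe letters only.

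The control library gave 5074 barcodes with 64770011 UMIs (molecular identifiers that count each captured RNA once) and the GS-KO library 1366 barcodes with 8805330 UMIs. More than 20% mitochondrial UMIs were found in 35.5% of control and 50.8% of GS-KO barcodes, and after filtering 3266 control and 656 GS-KO cells were kept, with medians of 7330 and 4104.5 UMIs. The libraries shared 1 barcode, which was not among the kept cells. Hepatocytes fell into 4 clusters, in a clustering that left the 8 genes out. They were a Mup-rich group led by major urinary protein and serpin genes (69 control and 6 GS-KO cells), a deep group named for its many UMIs per control cell (330 and 23 cells), a dividing group (106 and 1) and a low-RNA group (160 and 39). All 15 hepatocyte reference genes, such as Alb for albumin, were at least 2-fold higher in each of the 4 than in other cell classes. These genes were also the hepatocyte markers used for naming, and the low-RNA cluster was picked for its high sum of them. Their height thus partly reflects that choice. The Mup-rich and deep groups met the marker rule for the name hepatocyte-like. The dividing cluster, led by cell division genes, and the low-RNA cluster, whose median was 1233 UMIs in the control library, stayed unnamed and are called by those features. Against all other cells, the other hepatocyte groups included, the low-RNA cluster had 0 markers of any class 2-fold higher. Median depth in the deep group was 40753.5 UMIs in control against 6962 in GS-KO cells.

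Levels below are CPM, UMIs of a gene per 1000000 UMIs summed over the cells of a group, with exact Poisson 95% intervals, and so are shares of the RNA counted in those cells. With 1 mouse per group there is no replicate and no test of any difference: intervals cover counting error only, not the spread between mice, preparations or cells. Each transcript is counted near its 3′ end, so levels of 1 gene are compared between cells and not with those of another gene.

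In control hepatocytes 6 of the 8 genes, all but Nags and Slc25a13, took their largest share of RNA in the Mup-rich cells. The 3 genes with the widest gap were Cps1, Arg1 and Ass1. The first enzyme of the cycle, Cps1, stood at 507 CPM (459.9 to 559) in the Mup-rich group. It stood at 0.656 CPM (0.327 to 1.17) in the deep group, at 2.41 in the dividing group and at 11.1 in the low-RNA group, the last from 5 UMIs. Only 11 of the 330 deep control cells held a Cps1 UMI, 1 in each, while 39 of the 69 Mup-rich control cells held at least 1. In the dividing group 81.2% of the Cps1 UMIs came from 1 cell.

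Otc, the enzyme that follows Cps1 in mitochondria, did not show this all-or-none pattern. It stood at 457 CPM (412 to 506) in the Mup-rich, 102 (97.4 to 107) in the deep, 87.5 in the dividing and 70.8 in the low-RNA control cells, and 255 of the 330 deep cells held a UMI of it. Nags, whose product switches CPS1 on, was about level between Mup-rich and deep cells, at 56.1 (41.1 to 74.8) and 54.7 CPM (51.2 to 58.3). It was highest in the dividing group, at 111 CPM (103 to 119), and stood at 31.0 (16.9 to 51.9) in the low-RNA group. The genes for making and using the CPS1 activator thus differed in pattern: in deep control cells the interval of Nags lay within that of Mup-rich cells, while Cps1 was near 0.

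The cytosolic enzymes also parted. Ass1 stood at 2263 CPM (2161 to 2368) in Mup-rich control cells against 76.7 (72.5 to 81.0) in deep, 40.9 (36.2 to 46.1) in dividing and 92.9 (66.9 to 126) in low-RNA cells. Arg1, the last enzyme, stood at 494 CPM (447 to 545) in Mup-rich cells against 10.7 (9.22 to 12.4), 3.32 and 19.9, and 35 of the 330 deep cells held any Arg1 UMI. Asl, the enzyme between them, had a much shallower gradient, at 309.8 CPM (273 to 350.4) in the Mup-rich, 127 (121 to 132) in the deep, 58.5 in the dividing and 92.9 in the low-RNA group.

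Over all groups the levels of the mitochondrial carriers varied least, though between Mup-rich and deep cells Nags varied less than Slc25a15. The ornithine carrier Slc25a15 stood at 107 CPM (86.1 to 132), 49.0, 38.6 and 33.2 in the Mup-rich, deep, dividing and low-RNA control cells. The aspartate carrier Slc25a13 stood at 104 CPM (82.8 to 128), 106 (101 to 111), 149 (139.6 to 158) and 75.2 (52.1 to 105) in the same order. Only the dividing group lay outside the counting intervals of the Mup-rich cells for Slc25a13 on the higher side. Glul itself ran the other way, at 121 CPM in Mup-rich against 3367, 2579 and 2393 in the deep, dividing and low-RNA control cells.

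**Figure D1:**
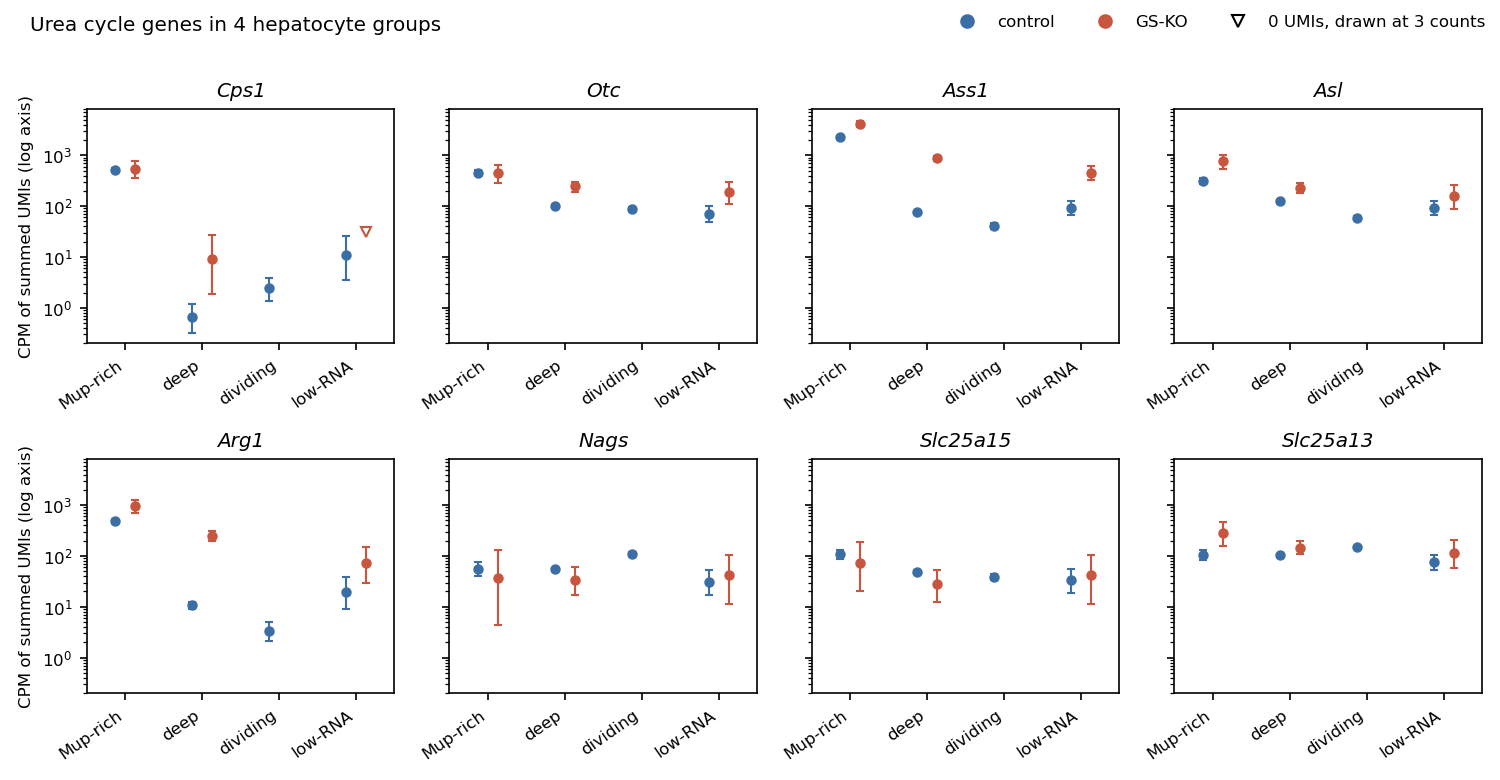
Level of each of the 8 genes (CPM of summed UMIs, log axis) in the Mup-rich, deep, dividing and low-RNA hepatocytes of the control (blue) and GS-KO (red) library, with exact Poisson 95% intervals; open triangles mark the level of 3 UMIs where none was counted, and the single dividing GS-KO cell is left out. Cps1, Arg1 and Ass1 span the widest range between groups in the control library, and the GS-KO points of Ass1 lie above the control points in each group shown.

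As ratios, 6 of the 8 genes were at least 1.5-fold lower in deep than in Mup-rich control cells, where 17.2% of all 10775 genes tested were. Cps1 was 774-fold lower (428 to 1562), Arg1 46.0-fold (38.5 to 55.2), Ass1 29.5-fold (27.5 to 31.7), Otc 4.48-fold (3.99 to 5.01), Asl 2.45-fold (2.14 to 2.79) and Slc25a15 2.19-fold (1.74 to 2.73). The ratios of Nags, 0.974 (0.725 to 1.34), and Slc25a13, 1.02 (0.822 to 1.29), had intervals that included 1. The counting interval lay wholly past 1.5-fold for the same 6 genes, against 5.44% of all genes. The median log2 ratio of the 8 was -1.73, against 0.17 over all genes. Groups of cells clustered on their RNA differ by construction, and these ratios are a description.

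Other genes with a known place in the lobule differed between the same cells. All 12 other periportal genes were at least 1.5-fold lower in deep than in Mup-rich control cells, among them Pck1, a gluconeogenesis enzyme, at 0.596 against 538 CPM and Cyp2f2, a periportal cytochrome P450, at 1.91 against 388. Of the 14 pericentral genes 13 were higher, where 29.8% of all genes were, such as the drug-metabolising Cyp1a2 at 7031 against 422 CPM and the glutamate transporter Slc1a2 at 866 against 41.5. The 15 hepatocyte reference genes were lower as well, 14 of 15 past 1.5-fold with a median log2 ratio of -1.20, and Alb stood at 7884 against 29941 CPM. Against that median of the reference genes, the log2 ratios of Asl, -1.29, and Slc25a15, -1.13, were of the same size, and those of Cps1, Arg1, Ass1 and Otc were larger.

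Most of the genes that feed the cycle differed by less than 1.5-fold. Of 14 genes for the supply of ammonia, aspartate and fumarate, 2 were lower and 2 higher in deep than in Mup-rich control cells. Of all genes, 17.2% were lower and 29.8% higher. The lower ones were Gls2, the liver glutaminase that releases ammonia from glutamine, with 1 UMI against 73, and Got1, the cytosolic enzyme that makes aspartate, 92.4-fold lower (62.3 to 141). Glud1, mitochondrial glutamate dehydrogenase, was 1.13-fold higher (1.03 to 1.24). Of 16 genes of arginine and ornithine use and uptake, 9 were measured with at least 20 UMIs. Of these 3 were lower and 2 higher, against the same shares of all genes. Oat, which degrades ornithine and is pericentral, was 3.04-fold higher (2.72 to 3.41), and the arginine transporter Slc7a2 was 3.51-fold lower (2.58 to 4.69). Of 12 transcription factors and receptors known to regulate urea cycle genes, 2 were lower and 1 was higher, against the same shares of all genes. Onecut1 was 5.02-fold lower (2.51 to 9.33), Klf15 1.66-fold lower (1.20 to 2.24) and Hnf4a 1.81-fold higher (1.44 to 2.30).

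Dividing and deep control cells differed in both directions. In the dividing cells Arg1 was 3.23-fold (2.07 to 5.29), Asl 2.16-fold (1.94 to 2.41) and Ass1 1.88-fold lower (1.64 to 2.15) than in the deep cells, while Nags was 2.03-fold higher (1.84 to 2.23). Cps1 was also higher, by 3.68-fold (1.60 to 8.77), on 16 against 11 UMIs and mostly from 1 cell. That made 3 of 8 lower, where 11.1% of all genes were, and 2 of 8 higher, where 20.5% were. Between low-RNA and deep control cells the intervals were wide, and of the 7 genes with at least 20 UMIs only Nags, 1.77-fold lower (1.05 to 3.24), and Arg1, 1.85-fold higher (0.834 to 3.6), passed 1.5-fold, where 22.0% and 31.2% of all genes did.

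Across 15 control clusters with at least 20 cells, the level of Cps1 (log2 of CPM + 10) was most like those of Pck1 (Pearson r = 0.995), Igfbp2, C9, C8b and Elovl3 among 12764 genes. Arg1 was most like C9 (r = 0.991), Gm50136, Hsd3b2, C8b and Pigr, and its r with Cps1 was 0.976. Nags followed Slc25a13 (r = 0.958) more closely than Cps1 (r = 0.445). These r values are descriptions over clusters of 1 library. The Mup-rich cluster had the highest Cps1 and Arg1, and the dividing cluster the highest Nags and Slc25a13.

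Between the libraries, the targeted gene was checked first. Glul stood at 3367 CPM (3339 to 3395) in deep control and 116 CPM (82.1 to 159) in deep GS-KO cells, 29.0-fold lower (21.1 to 41.0). It was 9.99-fold lower (6.62 to 15.8) in the low-RNA group, and no UMI of it was found in the 6 Mup-rich GS-KO cells. Which exons are floxed, and so whether the counted 3′ end is among them, is not given in the sources used here.

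In the deep group, 4 members stood at least 1.5-fold higher in the GS-KO library: Arg1, Ass1, Otc and Asl. Ass1 stood at 883 CPM (784 to 991) against 76.7 in control cells, 11.5-fold higher (10.1 to 13.1). Its per-cell level had a median of 346 CPM over the 23 GS-KO cells and 41.6 over the 330 control cells, with highest values of 2114 and 2758, so the ranges overlapped. A UMI of Ass1 was found in 21 of 23 GS-KO (91.3%) and 220 of 330 control cells (66.7%), although the GS-KO cells were shallower; after thinning each cell to 1000 UMIs the shares were 30.4% (7 of 23, exact binomial interval 13.2 to 52.9) and 10.6% (35 of 330, 7.50 to 14.4). One cell weighed heavily: the deepest GS-KO cell, with 82324 UMIs, 25.1% of the group's total and 16.5% mitochondrial UMIs, held 174 of the 289 Ass1 UMIs. Without it Ass1 stood at 469 CPM, a log2 ratio of 2.61 in place of 3.52.

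Arg1 stood at 250.5 CPM (199 to 311) against 10.7, 23.3-fold higher (17.7 to 30.5), but in few cells. Its 82 UMIs lay in 3 of the 23 GS-KO cells, with 14, 8 and 60 UMIs, and the other 20 had none. The cell with 60 was again the deepest one, and without it Arg1 stood at 89.8 CPM, a log2 ratio of 3.06 in place of 4.54. The cell with 8 Arg1 UMIs also held all 3 Cps1 UMIs of the group. Cps1 thus stood at 9.16 CPM (1.89 to 26.8), from 1 cell, against 0.656 in the control cells, and 22 of the 23 GS-KO cells had no Cps1 UMI.

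Otc stood at 244 CPM (194 to 304) against 102, 2.39-fold higher (1.89 to 2.99), and Asl at 226 CPM (177 to 284) against 127, 1.79-fold higher (1.40 to 2.25). Otc was found in 14 and Asl in 15 of the 23 GS-KO cells. The deepest cell held 32 of the 80 Otc UMIs, and without it Otc stood at 196 CPM. A second deep cell, of 78042 UMIs, held 29 of the 74 Asl and 5 of the 11 Nags UMIs. Without that second cell Asl stood at 180 CPM. Slc25a13, at 147 against 106 CPM, had a ratio of 1.38 (1.02 to 1.84). Nags, at 33.6 against 54.7 CPM, was 1.63-fold lower (0.905 to 3.27) on 11 GS-KO UMIs, and its log2 ratio of -0.70 turned to 0.37 with cells thinned to 1000 UMIs. Slc25a15, at 27.5 against 49.0 CPM, was 1.78-fold lower (0.933 to 3.91) on 9 UMIs. The counts for these last 2 genes do not separate them from no difference.

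Of the 7 members with at least 20 UMIs, 4 were therefore higher and 2 lower at 1.5-fold, where 22.4% of 10656 genes tested were higher and 31.1% lower. With the counting interval wholly past 1.5-fold and all cells included, Arg1, Ass1 and Otc remained higher, against 2.36% of all genes. None was lower, against 1.13%. For Otc this rests on all 80 UMIs, with 48 left without the deepest GS-KO cell. The members' median log2 ratio was 0.84, and that of all genes -0.04. Under TMM scaling, which puts most genes at no change, all log2 ratios of the deep group moved by -0.18 and these directions stood. Among cells of 1000 to 10000 UMIs only, where depths overlapped, the log2 ratios were 2.25 for Ass1, 2.99 for Arg1, 1.19 for Otc and 0.30 for Asl, so Asl was no longer past 1.5-fold. Over all alternative runs the lowest log2 ratio was 0.92 for Otc and 0.07 for Asl.

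**Figure D2:**
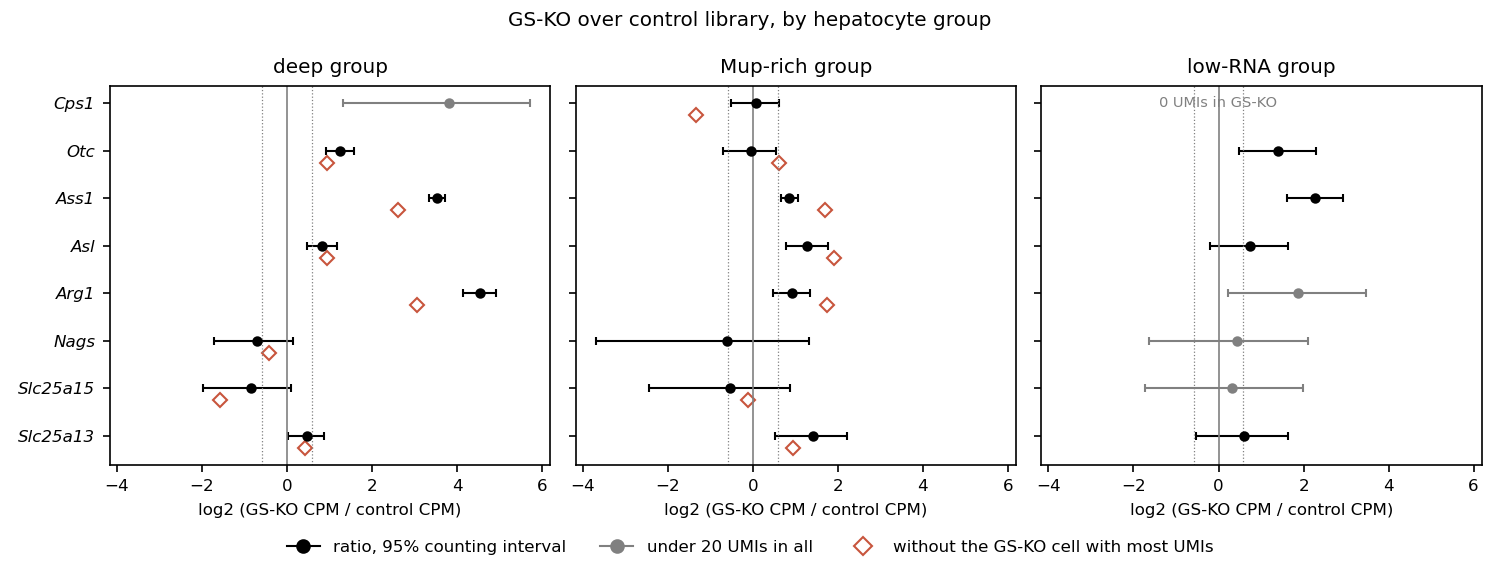
log2 of the ratio of GS-KO over control CPM for each of the 8 genes in the deep, Mup-rich and low-RNA hepatocytes, with 95% counting intervals; grey points have under 20 UMIs in all, dotted lines mark 1.5-fold and open diamonds are the values without the GS-KO cell with most UMIs. Ass1 lies above 0 in all 3 groups, the diamonds of Ass1 and Arg1 in the deep group lie at 2.61 and 3.06, and the intervals of Nags and Slc25a15 include 0 in all 3 groups.

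The Mup-rich group held only 6 GS-KO cells, so their values are given cell by cell. In order of depth, the cells of 1272, 1837, 3765, 11261, 11914 and 24152 UMIs held 21, 6, 8, 46, 140 and 2 Ass1 UMIs. Their Cps1 UMIs were 0, 0, 0, 2, 4 and 23, and their Arg1 UMIs 2, 0, 3, 7, 38 and 1. The cell with most Ass1, Asl, Otc and Arg1 was thus not the one with most Cps1: the cell of 11914 UMIs had 18 Otc and 27 Asl UMIs and no Cyp2e1, and the cell of 24152 UMIs had 3 Otc and 6 Asl UMIs and 60 of Cyp2e1, a pericentral cytochrome P450.

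Summed over the 6 cells, Cps1 stood at 535 CPM (358 to 768) and Otc at 443 (284 to 659), with ratios to the control group of 1.05 (0.697 to 1.54) and 0.968 (0.612 to 1.46). Ass1 stood at 4114 CPM (3592 to 4691), a ratio of 1.82 (1.58 to 2.09), Asl at 756 CPM with 2.44 (1.71 to 3.41), Arg1 at 941 CPM with 1.90 (1.39 to 2.55) and Slc25a13 at 277 CPM with 2.67 (1.43 to 4.65). These ratios were not stable. TMM scaling moved all log2 ratios of this group by -0.59 and left Ass1 at 0.27, and the log2 ratio of Arg1 was -0.12 once each cell was thinned to 1000 UMIs. Without the deepest of the 6 cells the log2 ratio of Cps1 was -1.34 in place of 0.08 and that of Otc 0.61 in place of -0.05, and in cells of 1000 to 10000 UMIs that of Otc was -2.20. Nags and Slc25a15 had 2 and 4 UMIs in the 6 cells.

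In the low-RNA group Ass1 stood at 448 CPM (324 to 603) in 39 GS-KO cells against 92.9 in 160 control cells, 4.82-fold higher (3.08 to 7.56), at similar depths of 1398 and 1233 UMIs per cell. The median share of mitochondrial UMIs was 8.64% in these GS-KO and 4.42% in the control cells, and its part in the result was not tested. Otc stood at 187 CPM (111 to 296) against 70.8, 2.65-fold higher (1.40 to 4.86). Asl, at 156 against 92.9 CPM, and Slc25a13, at 115 against 75.2, had intervals that included 1, and Arg1 had 7 against 9 UMIs. No cell dominated Ass1 here, since the highest held 5 of 43 UMIs. All 4 members with at least 20 UMIs were past 1.5-fold higher, where 17.8% of 3160 genes were, and Ass1 alone had its interval wholly past it, against 2.25%. Cps1 had no UMI in the 39 GS-KO cells. A level of 3 UMIs in these cells would be 31.2 CPM, above the 11.1 CPM of the control cells, so no difference was detectable at this depth.

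Taking Mup-rich and deep cells as 1 hepatocyte-like class, 6 of the 8 members were at least 1.5-fold higher in the GS-KO library, where 22.2% of all genes were, and 2, Nags and Slc25a15, lower, where 29.3% were. The median log2 ratio was 1.18 against -0.01 for all genes. This sum mixes the 2 groups in different proportions, with Mup-rich cells giving 14.2% of the UMIs in the GS-KO library (6 of 29 cells) and 4.66% in the control library (69 of 399 cells). In cells of 1000 to 10000 UMIs the class median was 0.12, and only 1 member passed 1.5-fold higher. The values within each group above do not depend on that mix of groups. Whether the make-up of cells inside a group differed between the libraries was not tested.

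The other lists in the deep group give the setting of these differences. Of the 12 other periportal genes 9 had at least 20 UMIs, 5 of them higher and 1 lower in the GS-KO library, where 22.4% of all genes were higher and 31.1% lower. Pck1 stood at 82.5 against 0.596 CPM, from 27 and 10 UMIs, and Tat, which degrades tyrosine, was 2.49-fold higher (1.75 to 3.45). Of 14 pericentral genes 9 were lower and none was higher. Cyp1a2 was 2.35-fold lower (2.21 to 2.51) and Slc1a2 3.73-fold lower (2.98 to 4.74), and the β-catenin target Axin2 had 3 GS-KO UMIs, 4.13-fold lower (1.41 to 20.1). Glul is 1 of those 9. Of the 15 hepatocyte reference genes 1 was higher and 3 were lower, and Alb had a ratio of 1.11 (1.07 to 1.15). The deepest GS-KO cell, of 82324 UMIs, held 1224 Alb UMIs, against 289 in the next deepest, of 78042 UMIs. The Alb ratio thus depends heavily on 1 cell, and its value without that cell was not computed.

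Of 13 supply genes measured, 4 were higher and 2 lower, where 22.4% and 31.1% of all genes were, and none had its interval wholly past 1.5-fold. Sirt3, a mitochondrial deacetylase, was 1.90-fold higher (1.37 to 2.58), and Car5a, which makes bicarbonate for CPS1, 1.5-fold (1.05 to 2.09). The 2 lower ones were the glycerol and urea channel Aqp9, 1.59-fold (1.13 to 2.32), and Sirt5, a deacylase that acts on CPS1, with 1 GS-KO UMI and an interval that included no difference. Among 10 measured genes of arginine and ornithine use, Oat was 1.83-fold lower (1.59 to 2.10), at 635 against 1160.4 CPM. The deepest GS-KO cells, of 78042 and 82324 UMIs, held 0 and 5 Oat UMIs, while the cell of 16733 UMIs held 48. The lower sum thus rests largely on those deepest cells, and a level without them was not computed. Slc7a2 was 2.76-fold higher (1.59 to 4.50) on 17 GS-KO UMIs. Of the 12 regulators 3 were higher and 3 lower, against the same shares of all genes, and none had an interval wholly past 1.5-fold. Cebpb had a ratio of 1.38 (1.06 to 1.76), Cebpa of 1.21 (0.862 to 1.64), and the glucagon receptor Gcgr was 1.86-fold lower (1.14 to 3.27).

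Within the control library, cells with less Glul had more Ass1 and Arg1. The 330 deep cells were sorted by their own Glul level into bins of 0 to 500, 500 to 2000, 2000 to 5000 and over 5000 CPM, holding 46, 75, 105 and 104 cells. Ass1 stood at 223 CPM (203 to 245), 85.2 (76.9 to 94.1), 56.3 (50.2 to 62.9) and 31.8 (27.0 to 37.4) in these bins. Arg1 stood at 76.6 CPM (64.8 to 89.8) in the lowest bin and at 3.32, 2.15 and 0.637 in the others. No single cell gave more than 19.3% of the UMIs of Arg1, or 17.8% of those of Ass1, in the lowest bin.

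Otc declined less, at 134, 128, 93.7 and 74.3 CPM, and Asl hardly differed, at 143, 121, 130.5 and 119.9. Nags ran the other way, at 45.4 (36.5 to 55.9) in the lowest and 66.2 (59.1 to 74.0) in the highest bin. Slc25a15 stayed between 47.5 and 52.6 CPM and Slc25a13 between 94.3 and 122. Cps1 was near 0 throughout, at 1.53 CPM from 3 UMIs in the lowest bin.

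Among the 19 deep GS-KO cells that themselves lay under 500 CPM of Glul, Ass1 stood at 879 CPM, Arg1 at 276, Otc at 232 and Asl at 229. Each was above the level in the control cells of the same Glul bin, 223, 76.6, 134 and 143. The deepest of these cells held 66.7% of the Ass1 and 73.2% of the Arg1 UMIs, and without it Ass1 stood at 405 and Arg1 at 103 CPM. Depth also differed between these sets of cells, and a shallow cell without a Glul UMI falls into the lowest bin whatever its true level.

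**Figure D3:**
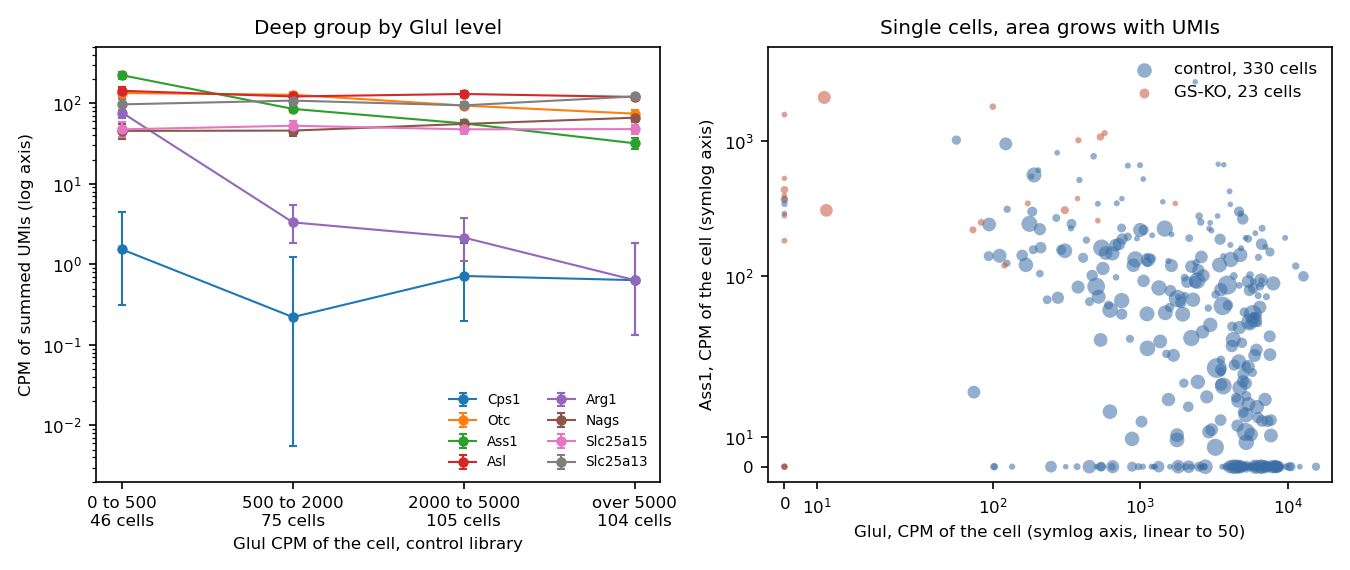
Left, level of the 8 genes (CPM of summed UMIs, log axis) in deep control hepatocytes binned by the Glul level of the cell, with exact Poisson 95% intervals; right, Ass1 against Glul in single deep cells of the control (blue) and GS-KO (red) library (CPM, axes linear near 0 and logarithmic above), with area growing with UMIs. Ass1 goes from 223 to 31.8 CPM and Arg1 from 76.6 to 0.637 over the bins, while Asl and the carriers stay within narrow ranges, and 19 of the 23 GS-KO cells lie under 500 CPM of Glul.

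As a description over 203 deep control cells, each thinned to 20000 UMIs, the correlation with Glul (log of UMI count + 1) was -0.48 for Ass1 (Spearman rho -0.41), -0.47 for Arg1 (-0.32), -0.33 for Otc (-0.36), -0.12 for Asl (-0.07) and 0.13 for Nags (0.16). These cells share 1 library, and Arg1 averaged 0.271 UMIs per thinned cell, so its value rests on few cells.

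Mup-rich control cells were not uniform either. Among those with at least 2000 UMIs, 24 had under 500 CPM of Cyp2e1 and 17 had more. Ass1 stood at 3212 CPM (3052 to 3379) in the first set and 766 (674 to 868) in the second, Arg1 at 719 (644 to 800.2) and 158 (118 to 208), Otc at 595 and 226, and Asl at 404 and 143. Cps1 stood at 582 (515 to 655) and 413 (346 to 489), with 36.4% and 50.4% of its UMIs in 1 cell of each set, and at 426 and 294 CPM without those cells. Nags, at 57.8 and 52.7, Slc25a15, at 113 and 105, and Slc25a13, at 94.2 and 112, had overlapping intervals.

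**Figure D4:**
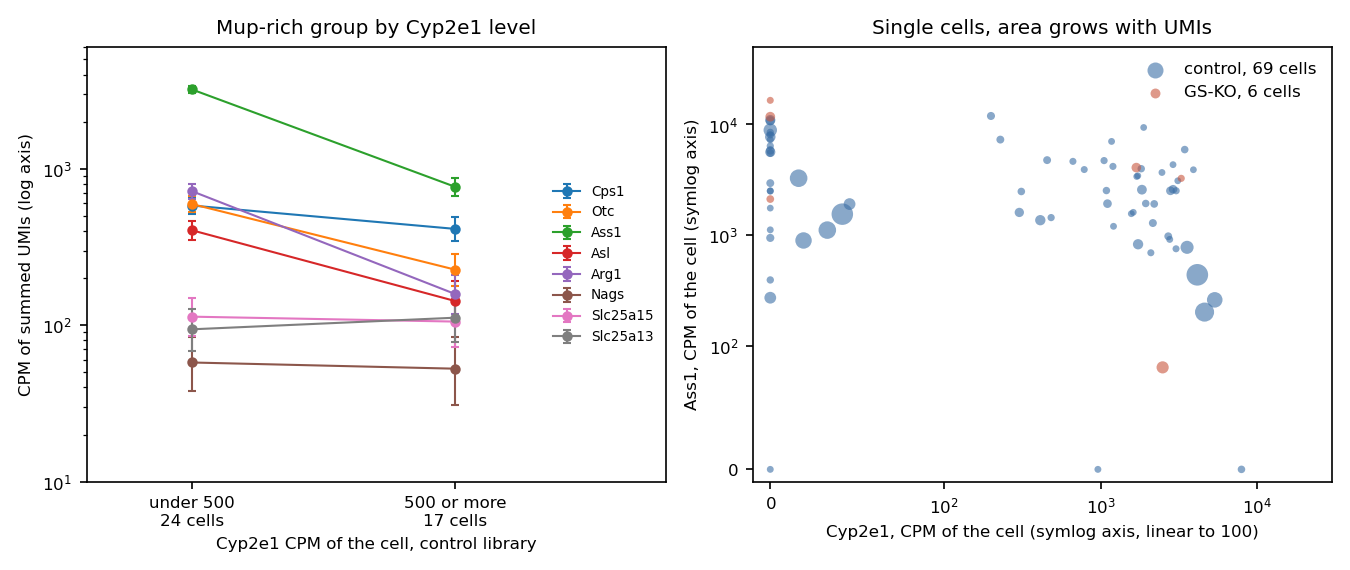
Left, level of the 8 genes (CPM of summed UMIs, log axis) in Mup-rich control cells with at least 2000 UMIs, for 24 cells under 500 CPM and 17 cells at or above 500 CPM of Cyp2e1, with exact Poisson 95% intervals; right, Ass1 against Cyp2e1 in all single Mup-rich cells of the control (blue) and GS-KO (red) library (CPM, axes linear near 0 and logarithmic above), with area growing with UMIs. Ass1, Arg1, Otc and Asl are higher in the Cyp2e1-low cells, and the intervals of Nags, Slc25a15 and Slc25a13 overlap between the 2 sets.

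Outside hepatocytes, Ass1 and Asl had UMIs in many classes, Arg1 in a few cells, and Cps1, Otc and Nags few. The carriers were also found: Slc25a13 stood at 7.71 CPM on 90 UMIs in macrophage-like and Slc25a15 at 2.23 CPM on 26 UMIs in the same control cells. In control cells of the named classes other than platelet-like cells (1 cell), Cps1 ranged from 0 to 4.88 CPM, Otc from 1.07 to 7.32 and Nags from 0 to 4.01. Free hepatocyte RNA can be captured with any cell, and hepatocyte reference genes were found in all these classes. Each member was therefore also set against those 15 genes: a value of 1 is the ratio of the member to the reference found in Mup-rich control cells. Deep control cells held less Cps1, Arg1 and Ass1 for their reference genes, so these values depend on the group chosen for comparison. Cps1 stood at 0.202 of that ratio in Kupffer-like and 0.144 in macrophage-like cells, and in B-like cells Cps1, Arg1 and Otc stood at 0.973, 1.12 and 1.35 times it.

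Ass1, which also lets immune cells remake arginine from citrulline, was clearest in T-like cells. It stood at 97.1 CPM (80.0 to 117) in 211 control and 106 (79.0 to 140.3) in 74 GS-KO cells, and 37.0% and 39.2% of the cells held a UMI. Its ratio to the reference genes was 7.54 times (6.17 to 9.13) that of Mup-rich cells. NK-like control cells had 67.3 CPM (53.5 to 83.7) and monocyte-like cells 71.8 (55.7 to 91.2), with ratios to the reference genes 6.66 and 3.28 times that of Mup-rich cells. Kupffer-like cells had 7.24 CPM (5.57 to 9.24), macrophage-like cells 10.2 (8.44 to 12.2) and B-like cells 24.0 (17.4 to 32.3). The summed reference genes stood at 1505, 1243 and 1369 CPM in these 3 classes. In Mup-rich control cells they stood at 151393 CPM beside 2263 CPM of Ass1, and in deep control cells at 62699 beside 76.7. In GS-KO B-like cells the reference genes stood at 132 CPM, and the log2 ratio of Ass1 to control B-like cells was -0.55. How much of the 3 lower Ass1 levels is free hepatocyte RNA was not tested, and they are not read as expression by those cells.

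After thinning to 1000 UMIs, 9.09% of T-like (5.56 to 13.8), 7.55% of monocyte-like (3.31 to 14.3), 3.73% of NK-like and 3.52% of B-like control cells (2.03 to 5.66) held an Ass1 UMI. Shares and summed CPM thus gave T-like and B-like cells the same order, and the intervals of T-like and monocyte-like cells overlapped. In the GS-KO library Ass1 in monocyte-like cells was 20.9 CPM on 8 UMIs, 3.43-fold lower (1.65 to 8.27), and the intervals of T-like cells in the 2 libraries overlapped. The thinned share in GS-KO monocyte-like cells, 8.51% (4 of 47, 2.37 to 20.4), was not below the 7.55% of the control cells, so shares of cells did not show that difference.

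Asl levels had overlapping intervals in 3 myeloid classes. In the control library it stood at 27.9 CPM (24.6 to 31.6) in Kupffer-like, 25.5 (22.7 to 28.6) in macrophage-like and 21.4 (13.1 to 33.1) in monocyte-like cells, and at 13 in T-like and 8.92 in B-like cells. The GS-KO values of 41.5 (24.1 to 66.4), 26.6 (15.7 to 42.0) and 15.7 (5.76 to 34.2) in the same 3 classes overlapped with these, and neutrophil-like cells had 2 Asl UMIs in each library. Relative to the reference genes Asl was 9.07 times as frequent in Kupffer-like and 10.0 times in macrophage-like as in Mup-rich control cells.

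Arg1 is also made by alternatively activated macrophages, and outside hepatocytes it was found in small sets of cells. In an unnamed cluster of 9 control and 2 GS-KO cells led by Retnla and Prg4, genes known from peritoneal and alternatively activated macrophages, it stood at 170.0 CPM (116 to 240.0) and 324 (162 to 579). Relative to the reference genes that control level was 16.8 times the Mup-rich one. The UMIs came from 4 of the 9 and both of the 2 cells. In macrophage-like cells led by Gpnmb and Ms4a7, Arg1 stood at 53.5 CPM (27.7 to 93.5) in the GS-KO library, all 12 UMIs from 2 of 18 cells, against 0.362 CPM, 1 UMI, in 150 control cells. In the other named control classes it did not exceed 7.32 CPM.

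**Figure D5:**
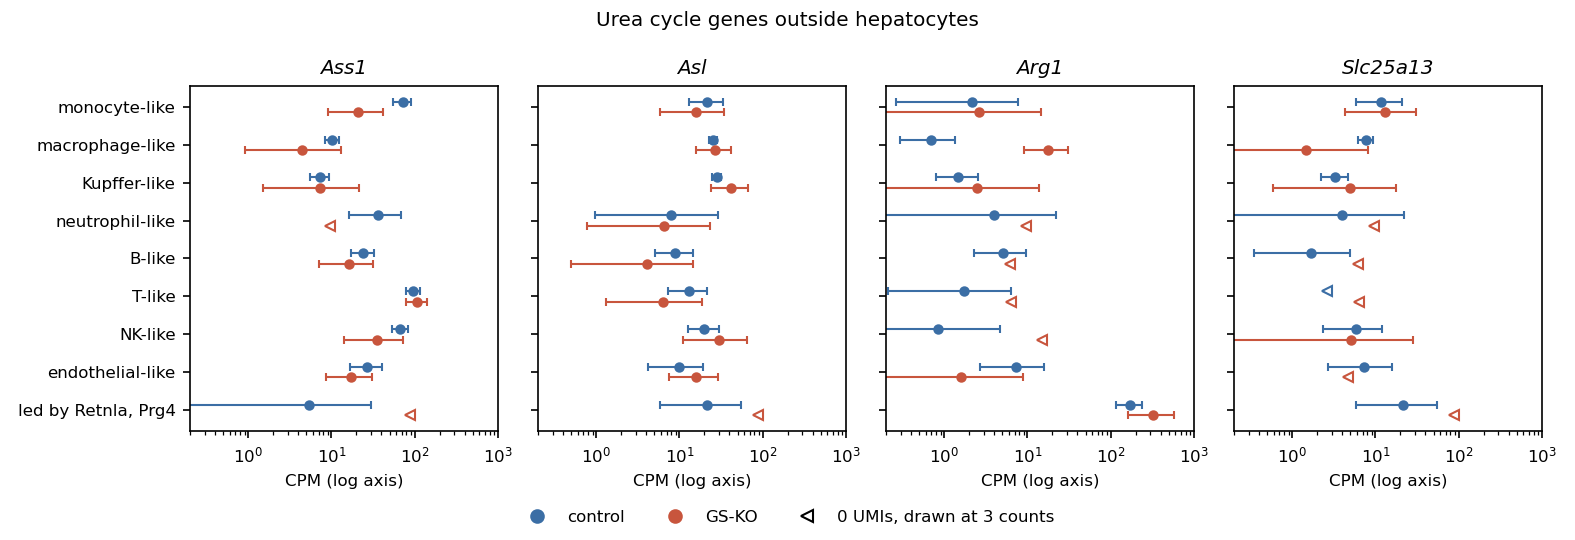
Level of Ass1, Asl, Arg1 and Slc25a13 (CPM, log axis) in the non-hepatocyte classes of the control (blue) and GS-KO (red) library with exact Poisson 95% intervals; open triangles mark the level of 3 UMIs where none was counted. T-like cells have the highest Ass1 of the named classes in both libraries, Asl is within a narrow range in myeloid classes other than neutrophil-like cells, and Arg1 is highest in the 11 cells of the cluster led by Retnla and Prg4.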

How the data were processed

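Droplet 3′ single-cell RNA-seq of 2 liver libraries was used as deposited: raw UMI counts per gene and barcode made by the authors with Cell Ranger on mm10, per the submitters' processing notes (software 3.1.0 per the file headers). The labels name the chemistry 3PrimeV2 and once call the assay single-nucleus; which applies was not settled. Strand handling is not given in the sources used here, and Nags overlaps the antisense gene Gm11586, so their reads may not be told apart.

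Barcodes with at least 500 UMIs, 200 genes and at most 20% mitochondrial UMIs were kept (3275 and 662), less 9 and 6 Scrublet doublets. Cells of both libraries were clustered together (2000 variable genes without the 8 members, 30 components, 15 neighbours, Leiden resolution 1) and named from fixed markers: at least 3 markers 2-fold above other cells, or 5 where none was among the 10 leading genes. A cluster under 1/3 of its library's median UMIs stayed unnamed.

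UMIs were summed per group and library and scaled to CPM. Ratios have 95% conditional binomial intervals. Genes with at least 20 UMIs over both sums were counted at 1.5-fold, with a prior count of 0.5 in log2 ratios, and up to 4 genes per comparison list were named, by their UMIs or by how far the interval lay from 1. Members and lists were chosen with earlier results of these data known; the split into hepatocyte groups and the alternatives without the deepest cell or with added clusters were chosen after seeing the data. The ratio and interval code was tested on simulated counts. Positions were taken from GRCm38. Tools: edgeR 4.0.16 in R 4.3.3 for TMM scaling only; matplotlib 3.10.9, igraph 0.11.9, scikit-learn 1.9.0, anndata 0.12.19, scanpy 1.11.5, pandas 2.3.3, scipy 1.17.1, numpy 2.4.6 and Python 3.11.15.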

Additional observations from a re-analysis of the deposited data

Results flagged for a closer look

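The 1799 control and 694 GS-KO barcodes with more than 20% mitochondrial UMIs were used in no comparison above, and they carried signal of the urea cycle. In the 848 and 314 of them with at least 500 UMIs and 200 genes, Ass1 stood at 450.2 CPM of non-mitochondrial UMIs (384 to 525) in the GS-KO and 266 (248 to 284) in the control library; a level above that of the control library in unused data is why it is given here. Cps1 ran the other way, at 22.1 against 168.5 CPM, as did Slc25a13, at 55.2 (33.7 to 85.3) against 109 (97.9 to 121). Slc25a15 was lower too, at 33.1 (17.1 to 57.9) against 76.1 (66.8 to 86.3). Otc, at 99.4 against 136, Asl, at 105 against 113, and Nags, at 24.9 against 52.9, were lower with overlapping intervals. Arg1, at 91.1 against 80.2, was higher with overlapping intervals. Glul stood at 88.4 against 2962. The summed hepatocyte reference genes were near level, at 63400 and 66943 CPM.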

How the results depend on the processing

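No paired analysis was possible because each group is 1 mouse. The class of Mup-rich and deep cells had a median log2 ratio of 1.18 and moved most: 0.69 with each cell thinned to 1000 UMIs, 0.53 as a mean over cells, 0.12 in cells of 1000 to 10000 UMIs, 1.62 at most 10% and 0.87 at most 50% mitochondrial UMIs. Its 6 higher members became 1 in cells of 1000 to 10000 UMIs. Its 2 lower members became 1 when thinned, with a total free of mitochondrial, ribosomal protein and haemoglobin UMIs, without the deepest GS-KO cell, at most 50% mitochondrial UMIs, with members kept for clustering, at Leiden resolution 0.5, and with the dividing or the dividing and low-RNA clusters added. In the deep group the 2 lower members became 0 when thinned and 1 in cells of 1000 to 10000 UMIs or without the deepest GS-KO cell. The median for deep over Mup-rich control cells, -1.73, was -2.26 thinned, -2.27 as a mean over cells and -1.91 in cells of 1000 to 10000 UMIs, with 6 lower members in every alternative run and 1 higher member when thinned in place of 0. Directions reversed for Cps1 in the class as a mean over cells (log2 ratio -0.26 in place of 1.79) and for Arg1 in the Mup-rich group (-0.12 thinned, -0.15 in cells of 1000 to 10000 UMIs). Among log2 ratios near 0 or with intervals that included it, the sign also changed for Nags in the deep group (-0.70, against 0.37 thinned and 0.02 in cells of 1000 to 10000 UMIs), Slc25a15 in the Mup-rich group (-0.53, against 0.22 as a mean over cells), Cps1 there (0.08, against -0.51 under TMM and -0.60 as a mean over cells) and, without the deepest GS-KO cell, Cps1 (-1.34) and Otc (0.61 in place of -0.05) there. With Alb alone as the reference, Ass1 in monocyte-like cells stood at 5.41, Asl in macrophage-like cells at 17.7 and in Kupffer-like cells at 21.9, and Arg1 in the cluster led by Retnla and Prg4 at 62.6 times the Mup-rich ratio. The cause of these shifts was not tested. The 23 deep and 6 Mup-rich GS-KO cells limit every comparison between libraries, above all for Nags, Slc25a15 and Cps1.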
